A study of Mus musculus with 6 samples.

Results

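De novo lipogenesis and triglyceride synthesis were followed as 31 genes, chosen by symbol from a list of the pathway's regulators and enzymes, among the 21956 genes of the deposited table. Whole-liver RNA was measured in 6 mice. In 3 mice, floxed alleles of the innate immune adaptor Sting1 were combined with the Cdh5-Cre driver, which acts in endothelial cells (Stingfl/fl Cdh5-Cre+, called knockout). The other 3 were littermates with the same floxed alleles and no Cre (Stingfl/fl Cdh5-Cre-, called control). Every animal ate normal chow until 8 weeks of age and for the next 10 weeks CDAHFD, a high-fat diet that lacks choline and has a defined amino acid content and serves as a model of steatohepatitis, so that both groups share the diet and the floxed alleles. Cre was carried by the knockout group alone, and its own effect and the loss of Sting1 cannot be told apart. The sources used here give no feeding state and no hour of sampling. The comparison asks how the liver's fat-making transcripts differed on this diet between mice with and without Cdh5-Cre, all with floxed Sting1. Whole-liver RNA does not show in which cells Sting1 was lost.

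In de novo lipogenesis the liver turns acetyl-CoA from sugar or acetate into palmitate, which is then elongated, desaturated and esterified to glycerol to give triglyceride. The transcription factors SREBP-1c (from Srebf1) and ChREBP (from Mlxipl) switch most of these enzymes on in response to insulin and to glucose, and Insig proteins hold SREBP precursors in the endoplasmic reticulum. A diet without choline is known to block the export of triglyceride from hepatocytes, because phosphatidylcholine is needed to build very low density lipoprotein.

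The members were ordered by step. The regulators were Srebf1, Mlxipl, Insig2 and Thrsp. Fatty acid synthesis held Pklr, Slc25a1, Acly, Acss2, Me1, Acaca, Acacb and Fasn, elongation held Elovl1, Elovl2, Elovl3, Elovl5 and Elovl6, and desaturation held Scd1, Scd2, Fads1 and Fads2. Triglyceride synthesis held Acsl5, Gpam, Agpat2, Agpat3, Lpin1, Lpin2, Mogat1, Dgat1, Dgat2 and Pnpla3.

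The promoters shown here belong to Fasn, Thrsp, Elovl6 and Mlxipl. Fasn, Thrsp and Elovl6 are the members of their steps with the smallest p that have an entry in the RefSeq table of start sites (GRCm38.p6). The window before the second start of Mlxipl was the only member window with a match to the sterol regulatory element core searched here. Each line gives the 250 bases before the start, 5′ to 3′ on the gene's strand. Capitals mark matches to 3 motifs searched on both strands: the core of the sterol regulatory element bound by SREBP (TCACNCCAC), the palindromic E-box (CACGTG) and the NF-Y box (CCAAT, read as ATTGG on the other strand). The windows lie at chr11:120824548-120824797 (minus strand), chr7:97417551-97417800 (minus strand), chr3:129532136-129532385 (plus strand) and chr5:135106641-135106890 (plus strand).
Fasn: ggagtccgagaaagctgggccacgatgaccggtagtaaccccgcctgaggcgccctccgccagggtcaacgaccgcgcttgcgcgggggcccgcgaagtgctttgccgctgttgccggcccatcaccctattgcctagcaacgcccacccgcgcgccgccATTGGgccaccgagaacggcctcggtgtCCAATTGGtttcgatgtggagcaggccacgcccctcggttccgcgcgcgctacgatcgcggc
Thrsp: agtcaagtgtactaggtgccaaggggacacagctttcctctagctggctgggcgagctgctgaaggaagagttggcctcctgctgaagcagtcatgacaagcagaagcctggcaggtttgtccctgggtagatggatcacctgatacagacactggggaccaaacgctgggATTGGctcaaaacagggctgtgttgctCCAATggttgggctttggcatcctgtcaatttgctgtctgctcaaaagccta
Elovl6: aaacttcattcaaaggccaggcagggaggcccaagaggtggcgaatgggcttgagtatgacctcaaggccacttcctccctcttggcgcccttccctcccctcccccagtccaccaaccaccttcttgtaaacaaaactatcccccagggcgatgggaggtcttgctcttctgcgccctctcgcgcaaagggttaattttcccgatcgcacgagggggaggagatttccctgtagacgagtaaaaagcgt
Mlxipl: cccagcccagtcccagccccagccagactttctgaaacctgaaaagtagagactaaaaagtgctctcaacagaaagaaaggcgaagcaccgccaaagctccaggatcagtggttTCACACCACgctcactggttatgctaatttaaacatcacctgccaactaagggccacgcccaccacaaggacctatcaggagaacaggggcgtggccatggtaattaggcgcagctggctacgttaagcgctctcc

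The Fasn window held 3 NF-Y boxes, of which those beginning 62 and 59 bases before the start overlap each other. The Thrsp window held 2 NF-Y boxes, and the Elovl6 window held none of the 3 motifs. In these 250 bases an NF-Y box was found for 16 of the 25 members in the table, against 37.5% of the 27025 genes in it. A sterol regulatory element core was found for 1 of 25 members against 1.22% of genes, and the palindromic E-box for 4 of 25 members (Elovl5, Lpin2, Mlxipl and Slc25a1) against 6.86%. Genes with several starts count once if any window held the motif, which favours genes with more windows. Counted by window, an NF-Y box was found in 17 of 37 member windows, against 33.8% of the 32851 windows in all. A match is a string of letters and not a shown binding site, and a window without a match can hold sites that differ from these letters. The start sites of the annotations differ. Most of the Thrsp window, with both of its NF-Y boxes, lies inside the gene as GENCODE places it (chromosome 7, 97412938 to 97417730). The Elovl6 window reaches into its gene only at its end. The Mlxipl window, before a second start, lies wholly inside the gene so placed (chromosome 5, 135089890 to 135138382).

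Total counts per library ran from 16704664 to 21025461. Counts of Sting1 itself were 106, 114 and 80 in the knockout livers, replicates 1 to 3, against 240, 365 and 226 for the controls, without overlap. The labels name sinusoidal endothelial cells beside liver, yet albumin alone took 6.91% to 10.9% of the counts of each library. The hepatocyte markers, 12 genes, summed to 160000 to 171500 CPM (read counts scaled to a common library total) in knockout and 125100 to 157700 CPM in control libraries, with control replicate 2 the lowest. These sums did not overlap between the groups. Of the 12 genes, 11 had a log2 fold change above 0 (TMM-scaled), with a median of 0.36. Summed cholangiocyte markers, of which all 9 tested had a log2 fold change below 0, ran from 251 to 559 CPM in knockout and from 549 to 1697 CPM in control libraries, again with control replicate 2 at the extreme. Kupffer cell markers, of which all 10 lay above 0 (TMM-scaled), summed to 895 to 1132 CPM in knockout and 616 to 1035 CPM in control libraries. Proliferation genes, of which all 8 lay below 0, summed to 28.6 to 48.1 CPM against 58.9 to 178 CPM. Adipocyte markers summed to 0.870 to 1.48 CPM over all libraries, and Adipoq, Lep and Plin1 had no count in any of them. In bulk tissue, fewer hepatocytes and less RNA per hepatocyte cannot be told apart.

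No member passed the genome-wide test. Of the 31, 30 had enough counts to be tested, and 0 had an adjusted p under 0.05 in edgeR's quasi-likelihood test with Benjamini-Hochberg adjustment over 13197 genes, where 0 genes in all were called (0%). At an unadjusted p under 0.05 there were 5 members, Thrsp, Srebf1, Fasn, Elovl6 and Dgat2, each with the higher mean in knockout livers; 3.75% of all genes tested met this rule as higher. None was lower at that level, against 7.00% of all genes. DESeq2 called 0 members, against 0.273% of genes called as higher and 0.629% as lower, and limma-voom called 0 members. Sting1, the floxed gene itself, was not called by edgeR either (log2 fold change -1.29, edgeR adjusted p 0.357), whereas DESeq2 called it (DESeq2 adjusted p 0.0015). A member that was not called is thus not shown to be unchanged.

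After scaling by TMM (trimmed mean of M-values, which sets most genes to no difference), 24 of 30 members had a log2 fold change above 0, with a median of 0.23. Of all genes 51.2% lay above 0, with a median of 0.0083. On the same scale 11 of the 12 hepatocyte markers lay above 0, with a median of 0.36, higher than that of the members. The median was 0.57 for fatty acid synthesis, 0.55 for the regulators, 0.24 for desaturation, 0.17 for elongation and 0.13 for triglyceride synthesis. The steps were not tested against each other. Leaving out 1 library moved several of these medians by over 1.5 times: for all members to 0.36 without control replicate 1 and 0.38 without control replicate 3, and for fatty acid synthesis to 0.31 without knockout replicate 3. The triglyceride median stood at 0.0064 without control replicate 2, at 0.25 without control replicate 1 and at 0.23 without knockout replicate 2. The elongation median turned to -0.11 without knockout replicate 1 and was 0.27 without control replicate 3. The desaturation median was 0.030 if knockout replicate 3 was left out, 0.13 without control replicate 3, and 0.45 without either control replicate 1 or knockout replicate 2.

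**Figure D1:**
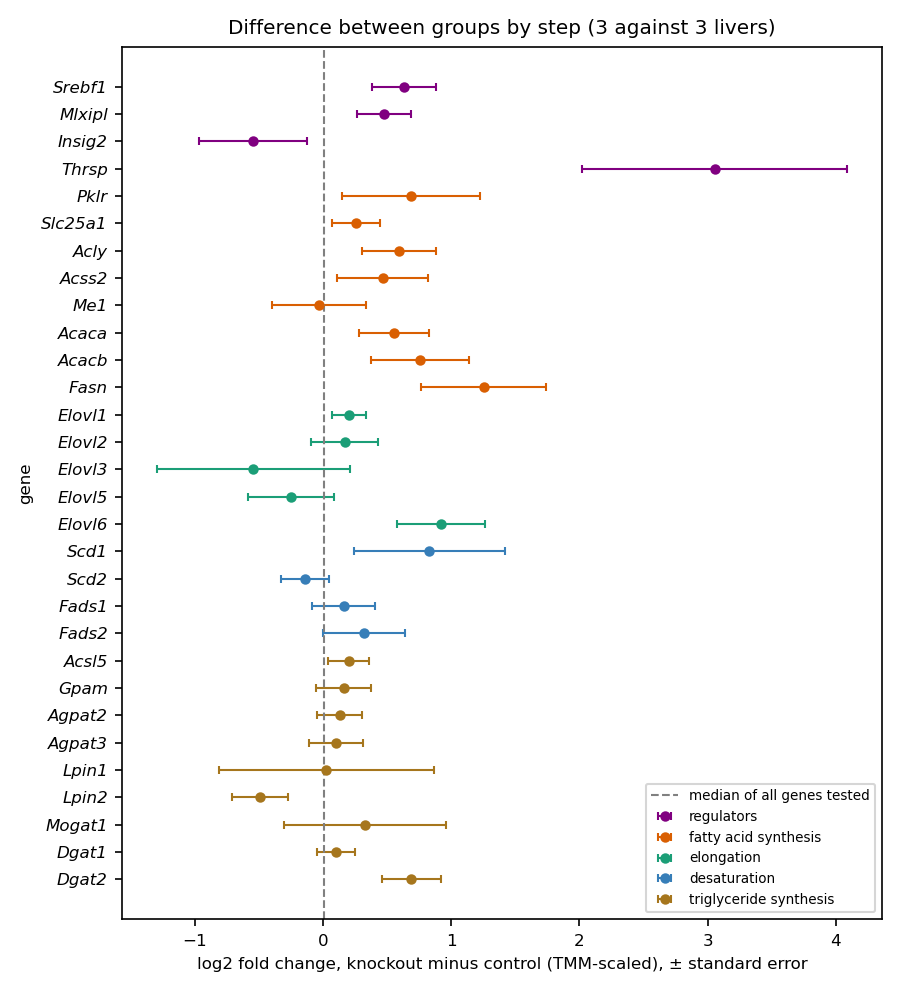
Log2 fold change of the 30 tested members, knockout minus control (horizontal axis, TMM-scaled, points with standard error bars), ordered and coloured by step; the dashed line is the median of all genes tested. Thrsp lies farthest from that line at 3.06, and 24 of 30 points lie above 0.

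How many members lay above 0 depended on the scaling of the libraries. TMM factors ran from 0.922 to 0.941 over the knockout livers and were 1.01, 1.26 and 0.975 for control replicates 1 to 3. With total counts alone the median of all genes shifted to -0.21, and 15 of 30 members lay above 0 against 21.2% of all genes. With libraries scaled to the 12 hepatocyte genes it shifted to -0.33, and 13 of 30 members lay above 0 against 12.5% of all genes. In the authors' TPM (transcript abundance scaled by gene length to a common total), on the log2(TPM + 1) scale, it shifted to -0.20, and 17 of 30 members lay above 0 against 19.0%. Relative to the median of all genes, 24, 24 and 23 of 30 members lay higher under these 3 scalings. A scaling moves all genes nearly together, so this count was largely bound to stay the same and is no separate check. The medians of the regulators and of fatty acid synthesis stayed above 0 under all 3, at 0.23 and 0.25 with the hepatocyte genes, whereas elongation, desaturation and triglyceride synthesis stood at -0.19, -0.097 and -0.17.

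**Figure D2:**
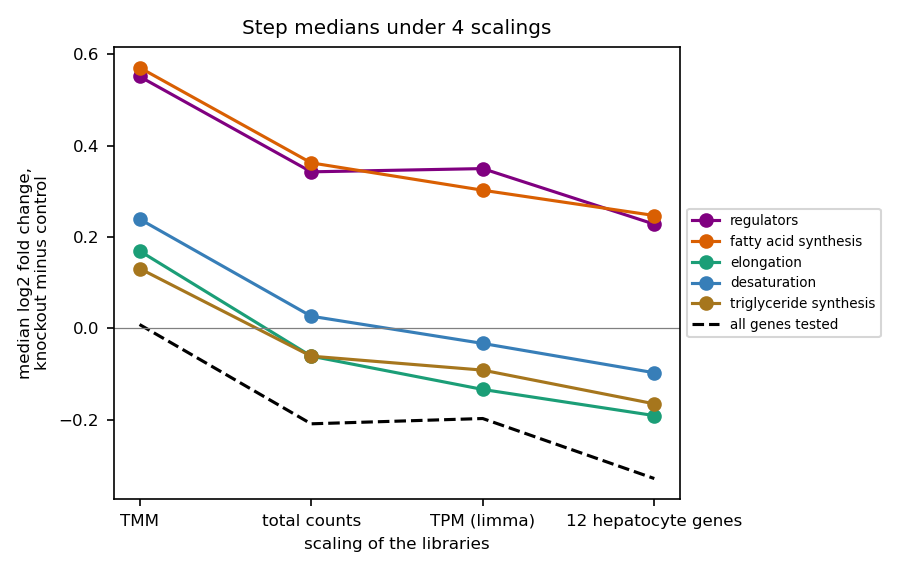
Median log2 fold change of each step (coloured lines, knockout minus control) and of all genes tested (dashed) under 4 scalings of the libraries. The whole set of lines moves down together by about the shift of all genes, and fatty acid synthesis and the regulators remain above 0 at 0.25 and 0.23 under the lowest scaling.

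Thrsp, which encodes Spot 14, a small protein that promotes lipogenesis, had the largest difference of the regulators. It was measured at 49.7, 98.2 and 127.5 CPM in knockout replicates 1 to 3 and at 23.0, 0.571 and 9.61 CPM in control replicates 1 to 3 (chromosome 7, 97412938 to 97417730, GRCm38). The groups did not overlap, and the control values differed more from each other than those of any other member, with only 12 counts in control replicate 2. The log2 fold change was 3.06 (standard error 1.04), and the edgeR adjusted p was 0.405. Without control replicate 2 it was 2.5, and without control replicate 1 it was 4.18.

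Srebf1 (chromosome 11, 60199089 to 60222581) stood at 56.0, 111.3 and 101.2 CPM in the knockout and 57.0, 66.9 and 49.4 CPM in the control libraries. Knockout replicates 2 and 3 lay above every control, and knockout replicate 1 lay among the controls. Group means stood at 89.5 ± 29.4 CPM (SD, n = 3) against 57.8 ± 8.77 CPM, with a log2 fold change of 0.63 (standard error 0.25) and an edgeR adjusted p of 0.427. The deposited gene-level values do not separate the SREBP-1a and SREBP-1c transcripts. Srebf1 overlaps Rai1 on the opposite strand.

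Mlxipl, the gene of ChREBP, stood at 32.7, 47.2 and 41.4 CPM in knockout and 32.3, 20.9 and 34.1 CPM in control livers. The groups overlapped through knockout replicate 1, and the log2 fold change was 0.47 (standard error 0.21, edgeR adjusted p 0.474) and 0.29 without control replicate 2. Insig2 was the regulator with the lower mean in the knockout, at 378, 202 and 150.3 CPM against 534, 204 and 329 CPM in control replicates 1 to 3. Its groups overlapped, with a log2 fold change of -0.55 (standard error 0.42); it was -0.12 when control replicate 1 was left out, -0.29 for knockout replicate 3, -0.82 for control replicate 2 and -1.01 for knockout replicate 1.

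Fasn, the synthase that builds palmitate, showed the largest difference of the fatty acid synthesis genes (chromosome 11, 120805846 to 120824547). It stood at 94.9, 402 and 313 CPM in knockout replicates 1 to 3 and at 124, 80.0 and 135 CPM in control replicates 1 to 3. Knockout replicates 2 and 3 lay above every control liver, and knockout replicate 1 lay between control replicates 1 and 2. The log2 fold change was 1.25 (standard error 0.49), and the edgeR adjusted p was 0.431. It ran from 0.85 without knockout replicate 2 to 1.66 without knockout replicate 1.

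Acly, which makes cytosolic acetyl-CoA from citrate, had the second smallest p of the step (chromosome 11, 100476353 to 100528000). It stood at 98.0, 188 and 231.5 CPM in the knockout and 97.8, 117 and 129 CPM in the control libraries, with a log2 fold change of 0.59 (standard error 0.29) and an edgeR adjusted p of 0.504. Acaca, the acetyl-CoA carboxylase that supplies malonyl-CoA for synthesis, followed the same order of libraries within the knockout group, at 72.2, 142 and 161 CPM. Its controls stood at 82.7, 75.9 and 97.6 CPM, and its log2 fold change was 0.55. With knockout replicate 3 left out both were at 0.33. Acaca was 0.83 without knockout replicate 1.

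The same knockout animal lay low across the step. In TMM-scaled CPM of fatty acid synthesis, knockout replicate 3 was above every control for 8 of 8 members and knockout replicate 2 for 6 of 8, whereas knockout replicate 1 was above every control for 0, within their range for 6 and below it for 2. In TPM knockout replicate 3 was above every control for 7 and knockout replicate 2 for 4, and knockout replicate 1 was below every control for 5. None of the 8 had groups that did not overlap on either scale. Without knockout replicate 1 the median of the step was 0.85.

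Among the others of this step, Acacb, the carboxylase whose malonyl-CoA restrains fatty acid oxidation, had a log2 fold change of 0.76, and Pklr, the liver pyruvate kinase, one of 0.69. Acss2, which activates acetate, had 0.46, the citrate carrier Slc25a1 0.26 and the NADPH-producing malic enzyme Me1 -0.033. Each of these rested in part on single livers. Acacb was 0.29 without knockout replicate 3 and 1.14 without control replicate 1. Leaving out control replicate 2 gave 0.16 for Acss2 and 0.12 for Slc25a1, and leaving out knockout replicate 3 gave 0.21 and 0.13. Pklr was 0.39 without control replicate 2, 0.45 without knockout replicate 2, 1.05 without knockout replicate 1 and 1.27 without control replicate 3. Me1 took either sign when 1 library was left out, from -0.54 to 0.25.

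**Figure D3:**
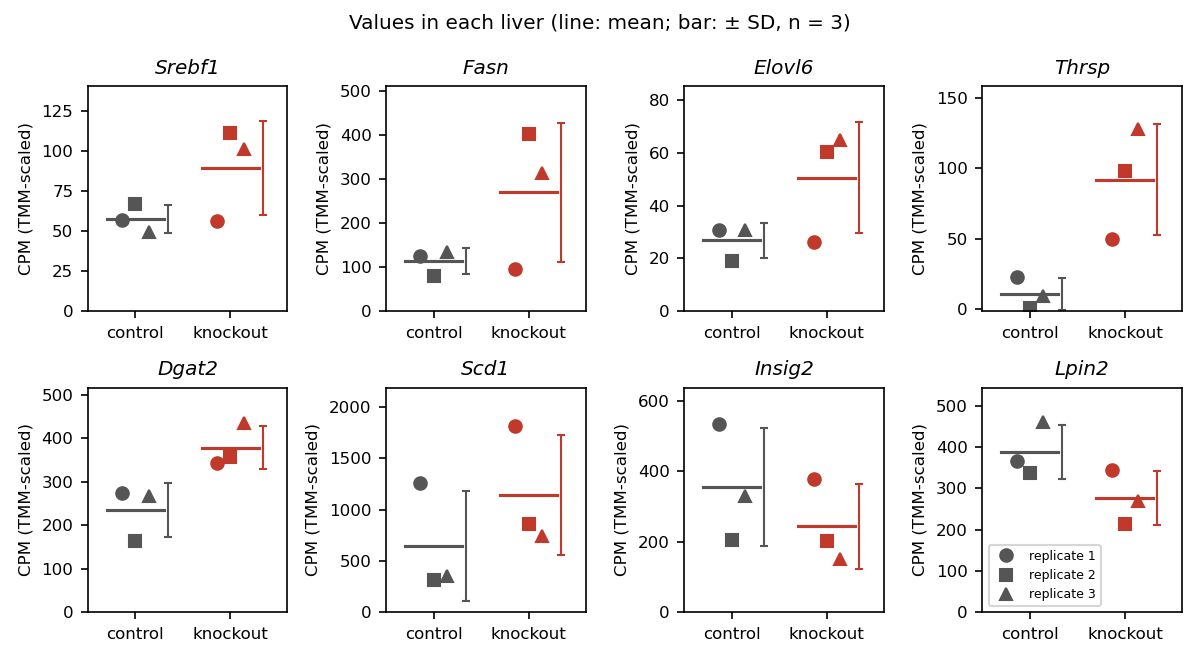
TMM-scaled CPM (vertical axis from about 0) of 8 members in each liver; symbols give the replicate number, lines the mean and bars ± SD (n = 3). Knockout replicate 1 (red circle) lies at control level for Srebf1, Fasn and Elovl6 and is the highest liver for Scd1 at 1819 CPM, while Dgat2 and Thrsp do not overlap between the groups.

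Among the elongases, Elovl6, which extends palmitate to stearate, had the largest difference (chromosome 3, 129532355 to 129638495). It stood at 26.3, 60.2 and 65.0 CPM in knockout replicates 1 to 3 and at 30.6, 18.9 and 30.7 CPM in control replicates 1 to 3. Its order followed that of Fasn in that knockout replicates 2 and 3 lay above every control and knockout replicate 1 among them. The log2 fold change was 0.92 (standard error 0.34), and the edgeR adjusted p was 0.408.

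Elovl1, which makes very long saturated chains, had the second smallest p of the step with a narrow spread, at 56.4, 68.7 and 69.0 CPM against 54.6, 53.4 and 61.0 CPM (log2 fold change 0.20, standard error 0.13). It overlaps Cdc20 on the opposite strand. Such overlaps were also present for Srebf1 (Rai1), Pklr (Hcn3), Acss2 (Ggt7 and Gss), Acaca (Gm11437), Elovl3 (Pitx3), Agpat2 (Egfl7 and Gm20532) and Mogat1 (BC035947). The libraries were made strand-specific, but the sources used here do not say whether counting used the strand. Elovl5, an elongase of polyunsaturated chains, was ordered otherwise, at 689, 264 and 373 CPM in the knockout and 634, 464 and 482 CPM in the control livers. Its log2 fold change was -0.25, and -0.72 without knockout replicate 1. Elovl2, which elongates the longest polyunsaturated chains, also was highest in knockout replicate 1, at 673 CPM, with 324 to 491 CPM in the other 5 livers and a log2 fold change of 0.17. Elovl3 ranged from 4.0 CPM in control replicate 2 to 32.5 CPM in control replicate 3, a span within 1 group wider than the knockout range of 6.49 to 18.1 CPM, and its log2 fold change of -0.54 turned to 0.43 without control replicate 3.

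Of the desaturases, Scd1, which puts the first double bond into stearate and palmitate, stood at 1819, 865 and 745 CPM in knockout and 1261, 317.5 and 353.5 CPM in control replicates 1 to 3 (chromosome 19, 44394455 to 44407879). Replicate 1 was the highest in both groups, and the groups overlapped through control replicate 1. The log2 fold change was 0.83 (standard error 0.59, edgeR adjusted p 0.632), and leaving out control replicate 1 gave 1.78, knockout replicate 1 gave 0.33, control replicate 2 gave 0.51 and control replicate 3 gave 0.54.

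Fads2, the first enzyme of polyunsaturated fatty acid desaturation, stood at 1241, 679.8 and 1528 CPM in knockout and 1156, 882 and 729 CPM in control livers, with knockout replicate 2 the lowest of all 6 (chromosome 19, 10062765 to 10101746). Its log2 fold change was 0.32 (standard error 0.32), and it was 0.062 without knockout replicate 3, 0.18 without control replicate 3, 0.53 without control replicate 1 and 0.59 without knockout replicate 2. Fads1, which acts after it, had 0.16 and Scd2, the Scd isoform abundant outside the liver, -0.14. Both overlapped between the groups. Scd1 and Scd2 are close relatives, and the sources used here do not say how counting split shared reads.

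Triglyceride synthesis held the member with the smallest p, Dgat2, the acyltransferase that completes most hepatic triglyceride made from new fatty acids (chromosome 7, 99153658 to 99182719). It stood at 343, 357 and 436 CPM in knockout replicates 1 to 3 and at 274, 164 and 268 CPM in control replicates 1 to 3. Every knockout liver lay above every control liver, knockout replicate 1 included. Group means stood at 379 ± 50.0 CPM (SD, n = 3) against 235 ± 62.0 CPM, with a log2 fold change of 0.69 (standard error 0.23) and an unadjusted p of 0.016 in edgeR. The edgeR adjusted p was 0.381, and over the alternatives run it ranged from 0.112 (DESeq2) to 0.815. The log2 fold change was 0.49 without control replicate 2 and 0.40 with libraries scaled to the hepatocyte genes. In TPM the groups did not overlap either, at 253, 268 and 323 against 223, 176 and 208.

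Lpin2, a phosphatidate phosphatase of the liver, was the tested triglyceride gene with a log2 fold change below 0 after TMM scaling (chromosome 17, 71182560 to 71249817). It stood at 344, 214 and 269.6 CPM in the knockout and 366.5, 337 and 461 CPM in the control libraries, with knockout replicate 1 just above control replicate 2. The log2 fold change was -0.49 (standard error 0.22, edgeR adjusted p 0.476). In TPM the groups did not overlap, at 121, 76.2 and 92.6 against 139, 169.5 and 170.5.

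Acsl5, an acyl-CoA synthetase, stood at 297, 313 and 344 CPM in knockout and 291, 245 and 294 CPM in control livers, so that the groups did not overlap in CPM by a small margin. They overlapped in TPM, and the log2 fold change was 0.20 (standard error 0.16, edgeR adjusted p 0.67). It was -0.0044 with total counts alone and 0.13 without control replicate 2. Acsl5 overlaps Zdhhc6 on the opposite strand.

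The other triglyceride genes had groups that overlapped. Gpam, the mitochondrial acyltransferase that starts glycerolipid synthesis, had a log2 fold change of 0.16, which was 0.0064 without control replicate 2, 0.014 without knockout replicate 1, 0.27 without knockout replicate 2 and 0.34 without control replicate 1. Agpat2 had 0.13 and Agpat3 0.0995, both of them acyltransferases of the second step. Dgat1, the acyltransferase that also re-esterifies incoming fatty acids, stood at 15.6, 12.2 and 14.1 CPM against 13.1, 13.0 and 13.1 CPM (log2 fold change 0.10, standard error 0.15). It was 0.016 without knockout replicate 1 and 0.19 without knockout replicate 2. Lpin1, the phosphatase that is also a transcriptional coactivator, varied widely in both groups, at 63.3, 114 and 356 CPM in knockout and 56.3, 138 and 329 CPM in control replicates 1 to 3, with a log2 fold change of 0.025. Mogat1, a monoacylglycerol acyltransferase, had 6 to 30 counts per library. Pnpla3, a lipid droplet protein of hepatocytes, was close to absent, with counts of 1, 2 and 1 for the knockout against 5, 1 and 0 for the control, and was not tested.

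Members whose groups did not overlap were few. In TMM-scaled CPM there were 3 of 30, Thrsp, Dgat2 and Acsl5, all higher in the knockout, against 7.25% of all genes tested; 0 were lower, against 9.14%. In TPM there were 2 higher, Thrsp and Dgat2, against 1.38% of all genes, and 1 lower, Lpin2, against 18.6%. Thrsp and Dgat2 were thus separated on both scales, and their log2 fold changes stayed above 0 in all 17 alternative fits. Separated groups leave the fits without 1 library almost no room to change sign, so those fits add little for these genes. Over the 17 fits, which reuse the same 6 livers, 12 members were always above 0 and 2, Insig2 and Lpin2, always below. The share of all genes that kept their sign was not counted. The 12 were Thrsp, Srebf1, Mlxipl, Fasn, Acly, Acaca, Acacb, Acss2, Pklr, Elovl6, Scd1 and Dgat2.

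The livers differed from each other within a group more for these genes than for most. The SD of log2 CPM within groups had a median of 0.47 over the 30 members and 0.25 over all genes tested, and 26 members lay above the latter. Thrsp (1.94), Lpin1 (1.27), Elovl3 (1.18) and Scd1 (0.92) varied most, and Dgat1 (0.13), Acsl5 (0.13) and Elovl1 (0.14) least. In TMM-scaled CPM knockout replicate 3 was the highest of the 6 livers for 15 members, and control replicate 2 was the lowest for 17 and highest for 0. In TPM knockout replicate 3 was still the highest for 13, whereas control replicate 2 was the lowest for 5 and the highest for 5, so that its place depended on the scaling. Control replicate 2 was also the library with the lowest hepatocyte and highest cholangiocyte sums. The part of these cell types in the members' values was not tested.

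**Figure D4:**
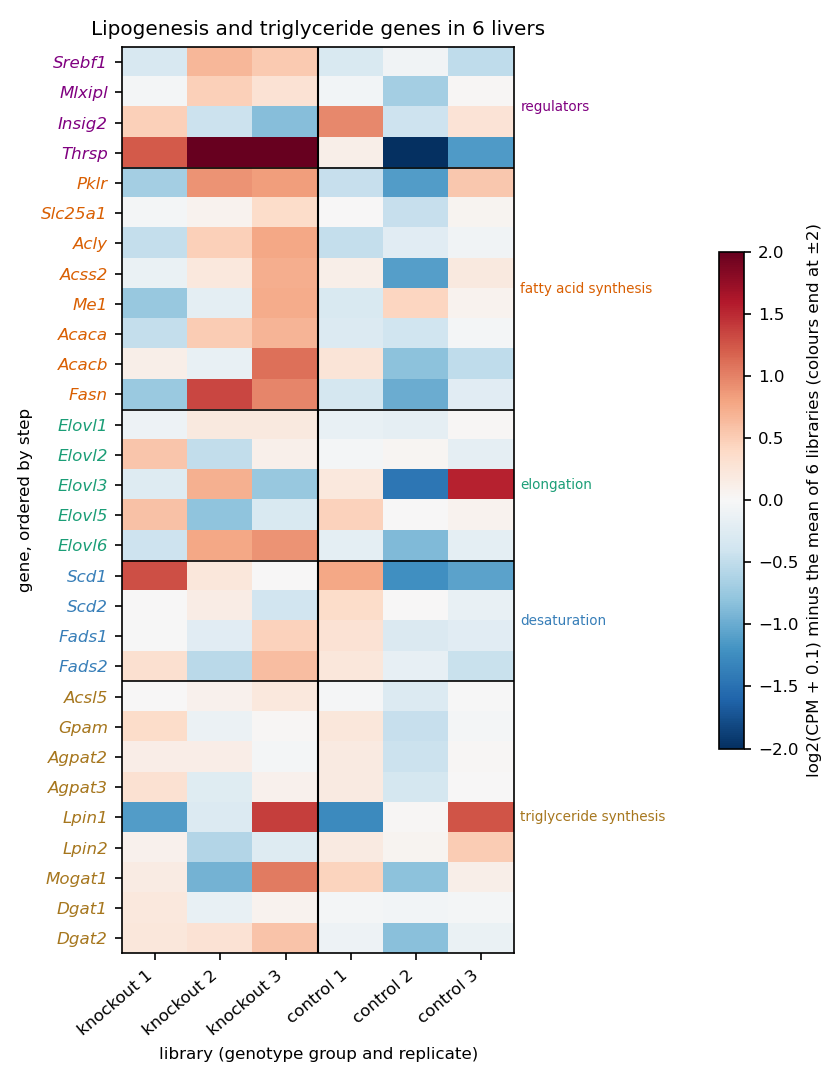
Log2(CPM + 0.1) of each tested member (rows, by step) in each liver (columns), minus the member's mean over the 6 livers; colours end at ±2. Knockout replicates 2 and 3 are red across most fatty acid synthesis genes while knockout replicate 1 is blue or pale, and control replicate 2 is the lowest liver for 17 of 30 members on this scale (5 of 30 in TPM).

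Ratios of 2 members within a library do not depend on library scaling. Of 9 pairs compared by TPM, 1 had groups that did not overlap: Dgat2 to Dgat1 was 18.3, 24.5 and 25.8 in knockout replicates 1 to 3 against 17.5, 10.6 and 17.1 for the controls. The difference was 0.62 on the log2 scale, with a two-sided exact permutation p of 0.1, the smallest that 3 against 3 allows, and an adjusted p of 0.9 over the 9 pairs. Knockout replicate 1 exceeded the highest control by little, and the difference was 0.39 without control replicate 2. Elovl6 to Elovl5 was 0.0181, 0.108 and 0.081 in knockout and 0.0234, 0.0214 and 0.0323 in control livers, so that knockout replicate 1 had the lowest ratio of all and the other knockout livers the highest. The log2 difference was 1.10 (exact permutation p = 0.4). It was 0.60 without knockout replicate 2 and 1.89 without knockout replicate 1. Scd1 to Scd2 was 61.5, 26.2 and 34.6 against 33.5, 10.7 and 15.3, with a log2 difference of 1.12 (exact permutation p = 0.2). The other pairs, Mlxipl to Srebf1, Acacb to Acaca, Elovl3 to Elovl6, Fads2 to Fads1, Lpin1 to Lpin2 and Agpat2 to Agpat3, had exact permutation p values from 0.4 to 1.

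Per length, desaturases, an elongase of polyunsaturated chains, Insig2 and genes of triglyceride assembly stood highest, above every member of palmitate synthesis. By the median TPM over the 6 livers, Fads2 stood at 666, Insig2 at 381, Elovl5 at 357, Scd1 at 290, Acsl5 at 285, Agpat3 at 243 and Dgat2 at 238. Acly stood at 58.7, Srebf1 at 35.1, Acaca at 32.6, Fasn at 26.7 and Elovl6 at 9.82. Dgat1 (12.7) lay below Dgat2 and Scd2 (11.0) below Scd1 in every liver, whereas Acacb (4.95), Mogat1 (1.22) and Pnpla3 (0.079) were the lowest. No chow-fed group was analysed here, so that these levels are those of the diet.

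The rest of the pathway was followed in 53 further genes, of which 49 could be tested. None passed edgeR's adjusted test; 6 were higher and 1 lower at an unadjusted p under 0.05, against 3.75% and 7.00% of all genes. After TMM scaling 37 of 49 lay above 0, with a median of 0.14, against 51.2% of all genes. How many lay above 0 under the other scalings, which moved the median of all genes as low as -0.33, was not counted. DESeq2 called 0 of them as well. Of the 10 regulators, 8 lay above 0, and Mlx, the partner protein of ChREBP, had the smallest p of the list at 35.9, 41.0 and 39.7 CPM in knockout and 27.9, 26.0 and 31.7 CPM in control livers (log2 fold change 0.45, standard error 0.13, edgeR adjusted p 0.373).

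Of the 14 further genes of carbon supply and fatty acid synthesis, 13 lay above 0 after TMM scaling, with a median of 0.12. Of 7 tested elongation genes 4 lay above 0, and Elovl7 had the smallest p at -1.03 (standard error 0.45). Of 4 desaturation genes 3 lay above 0, with Fads6 at 0.43. Of 14 triglyceride genes 9 lay above 0, and Agpat1, another acyltransferase of the second step, had the smallest p at 0.35 (standard error 0.15). By TMM-scaled CPM, 8 of the 49 had groups that did not overlap with the knockout higher, against 7.25% of all genes, and 0 with it lower, against 9.14%. By TPM the numbers were 0 higher, against 1.38%, and 7 lower, against 18.6%.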

How the data were processed

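Bulk polyA RNA-seq libraries of 6 mouse livers were deposited by the authors as estimated counts per gene and as TPM. The submitters' processing notes list RSEM 1.3.3, HISAT2 2.2.1, fastp 0.23.2 and DESeq2 1.38.3 and the build mm10 (GRCm38), with no roles or order. The sources used here name no annotation release. Of the deposited estimated counts, which carry no normalization, 6.93% were not whole, and all were rounded. The TPM as deposited were scaled by the authors for gene length to the same sum in each library.

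Knockout was compared with control over the whole table with edgeR 4.0.16 (R 4.3.3): filterByExpr, TMM, robust quasi-likelihood fit, Benjamini-Hochberg adjustment at 0.05. CPM use TMM-scaled library sizes, except summed CPM of marker lists, which use total counts. Standard errors came from the F statistic of each fold change. Ratios used the exact permutation test. Positions came from GENCODE M21 (GRCm38), promoters from RefSeq (GRCm38.p6), where 25 of 31 members matched.

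All members were accounted for; values per liver are given for Srebf1, Mlxipl, Fasn, Scd1 and Dgat2, for the 2 members of each step with the smallest p, and for those whose groups did not overlap. Others given per liver (Insig2, Acaca, Elovl5, Lpin1, Dgat1, Pnpla3) were chosen after their values were seen. Of the other pathway genes, the 1 with the smallest p of each step is named, except for 1 that is not reported here. The members, lists and tests were chosen with earlier results of these data known. The fits were tested on simulated data in which 200 of 13197 genes were changed. There edgeR called 63% of the 2-fold and 97% of the 4-fold changes. The changed genes were drawn from genes at large and not from the members, whose spread within groups was wider (median SD 0.47 against 0.25). These rates therefore do not carry over to the members, for which differences above 2-fold can be missed as well. Alternatives were DESeq2 1.42.0, limma-voom (limma 3.58.1), other scalings and filters, TPM fits, a replicate block and each library left out.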

Additional observations from a re-analysis of the deposited data

How the results depend on the processing

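No member passed an adjusted p of 0.05 in any of the 17 alternative fits. The precision is set by the spread between livers rather than by depth, except for Mogat1 and Pnpla3. The cause of the shifts below was not tested, other than that a scaling moves all genes together. Replicate numbers are shared by the groups, but deviations from the group means correlated at 0.115, -0.0068 and 0.133 for replicates 1, 2 and 3, so the numbers were not taken to pair the mice. With the replicate block edgeR called 5 genes of the whole table, none of them a member, and Lpin1 turned to -0.00070. DESeq2 called 119 genes of the whole table, and the fits that leave out 1 library called 0 to 2.

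On the log2 scale, the medians under hepatocyte gene scaling were -0.080 for all members, 0.23 for the regulators, -0.19 for elongation, -0.097 for desaturation and -0.17 for triglyceride synthesis. Under total counts alone elongation and triglyceride synthesis both stood at -0.061. The order of the livers by TPM was added after seeing the data. In log2(TPM + 1) elongation, desaturation and triglyceride synthesis stood at -0.13, -0.033 and -0.092, and in log2(TPM + 0.1) at -0.13, -0.033 and -0.092, where the median of all genes was -0.23. Over the fits without 1 library the medians ran from 0.16 to 0.38 for all members, 0.40 to 0.75 for the regulators, 0.31 to 0.85 for fatty acid synthesis, -0.11 to 0.27 for elongation, 0.030 to 0.45 for desaturation and 0.0064 to 0.25 for triglyceride synthesis.

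Members that lay above 0 in the report's fit turned below 0 as follows. With total counts alone these were Elovl1 (-0.010), Elovl2 (-0.061), Fads1 (-0.045), Acsl5 (-0.0044), Gpam (-0.032), Agpat2 (-0.061), Agpat3 (-0.099), Lpin1 (-0.16) and Dgat1 (-0.12). With hepatocyte gene scaling they were Slc25a1 (-0.042), Elovl1 (-0.13), Elovl2 (-0.19), Fads1 (-0.16), Fads2 (-0.031), Acsl5 (-0.12), Gpam (-0.14), Agpat2 (-0.17), Agpat3 (-0.21), Lpin1 (-0.25) and Dgat1 (-0.24). In log2(TPM + 1) they were Elovl1 (-0.049), Elovl2 (-0.13), Fads1 (-0.093), Agpat2 (-0.092), Agpat3 (-0.13), Lpin1 (-0.23) and Dgat1 (-0.14), and in log2(TPM + 0.1) the same 7, at -0.050, -0.13, -0.093, -0.092, -0.13, -0.23 and -0.15. Over the fits without 1 library both signs were met by Me1 (-0.54 to 0.25), Elovl2 (-0.11 to 0.40), Elovl3 (-1.06 to 0.43), Elovl5 (-0.72 to 0.016), Scd2 (-0.26 to 0.030), Fads1 (-0.052 to 0.38), Agpat2 (-0.020 to 0.27), Agpat3 (-0.030 to 0.23), Lpin1 (-0.98 to 0.87) and Mogat1 (-0.32 to 0.72). The same held for the log2 ratios of Mlxipl to Srebf1 (-0.27 to 0.36), Acacb to Acaca (-0.11 to 0.62), Fads2 to Fads1 (-0.015 to 0.31), Lpin1 to Lpin2 (-0.21 to 1.26) and Agpat2 to Agpat3 (-0.12 to 0.13). Mlxipl to Srebf1 was -0.091 from estimated counts.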
